A study of Mus musculus with 48 samples.

Results

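The comparison described here is the loss of Ikaros in pro-B cells high for c-Kit, an early class of mouse B-cell progenitors with much stem cell factor receptor, the product of Kit, on the surface. Its members are the genes that reached 1 RPKM in 2 or more of the 4 c-Kit-high libraries, which are 11122 genes of 21025 gene models in the files. RPKM is the number of reads scaled to the length of the gene model in kilobases and to the mapped reads of the library in mega (M). The 2 control libraries are Ikzf1(fl/+) Cd79a(Cre/+) and the 2 deleted libraries Ikzf1(fl/-) Cd79a(Cre/+), all on the C57BL/6 background; the labels give no age. Cells of all 4 libraries therefore carry the Cre recombinase in place of a copy of Cd79a, a B-lineage gene, together with a floxed Ikzf1 allele, so the controls are compared as cells with a single remaining wild-type allele and not as wild-type cells. The wider series holds 48 samples; 14 RNA libraries of pro-B and pre-B cells in 7 groups of 2 share the fit used here, the others being pro-B cells not labelled c-Kit high (total pro-B cells here) with the same genotypes, pro-B cells with those genotypes and Rag2(-/-), and wild-type pre-B cells. The labels do not say that the libraries of a group came from separate animals, so the p-values rest on the spread within pairs of libraries, and that spread may be technical.

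Ikaros is a zinc finger DNA-binding protein that both activates and represses genes, partly by recruiting the NuRD chromatin remodelling complex. Pro-B cells rearrange the immunoglobulin heavy chain locus with the Rag1 and Rag2 recombinase, add bases at the joins with terminal transferase, and assemble the surrogate light chain for the pre-B cell receptor (pre-BCR). Progress to the next stage requires signals of that receptor and release from IL-7 signalling and from adhesion to stroma, steps for which Ikaros is known to be needed. Loss of IKZF1 is a known lesion of B-cell precursor leukaemia.

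Pro-B genes were abundant in all 4 libraries. The surrogate light chain gene Igll1 was at 1584 to 2262 RPKM and Kit at 34.2 to 46.2 RPKM over the 4 libraries, and neither passed the test (adjusted p = 0.916 and 0.735 in limma). The implied depth was 8.74 M reads in control 1, 2.3 M in control 2, 9.34 M in deleted 1 and 9.15 M in deleted 2. In the shallow control 2, 1 read is worth 0.435 RPKM for a gene of a kilobase, so low values there rest on a few reads. Control 1 and deleted 2 carry consecutive library numbers and share features with each other rather than with their groups. Replication-dependent histone genes took 0.557% and 0.627% of the summed RPKM in that pair, against 0.0618% in control 2 and 0.0501% in deleted 1. Mature neutrophil genes summed to 820 and 425 RPKM in the pair, against 193 and 195 RPKM in the other 2 libraries. Because each group holds a library of either kind, a term for the pair could be added to the fit, and with it 1491 genes were called up and 756 down. Across genes, which are not independent replicates, Pearson's r of log2 values was 0.965 between controls, 0.971 between deleted libraries and 0.907 to 0.932 across the groups.

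Ikzf1 itself had control values of 101 and 124 RPKM against 64.5 and 86.0 RPKM in the deleted libraries. The groups did not overlap, as in every called member, and the log2 difference was -0.58 ± 0.14 (SE, limma adjusted p = 0.0144). The call ended without deleted 1 or without control 2, with a log2 difference between -0.38 and -0.79 over the 4 fits with a library left out. It also ended with no filter on low values and with the 4 c-Kit-high libraries fitted alone (limma adjusted p up to 0.0854). A value over the whole gene model does not resolve a floxed exon, so it checks the genotype little. Of the other Ikaros family factors, Ikzf4 (Eos) rose from 0.0656 and 0 RPKM to 2.74 and 2.19 RPKM. Aiolos, encoded by Ikzf3, had 9.98 and 18.0 RPKM without and 69.8 and 84.4 RPKM with the deletion, without overlap, as in 53.7% of all genes fitted. Its log2 difference of 2.43 ± 0.91 (SE) did not pass the test (limma adjusted p = 0.118). That SE rests on the spread within all 7 groups and not on the c-Kit-high libraries alone. Within the Rag2-null groups Ikzf3 was uneven, at 4.91 and 22.0 RPKM in controls and 2.21 and 22.0 RPKM in deleted libraries.

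Deletion was followed by more rises than falls. Of the 11937 genes fitted over the 14 libraries, 2049 (17.2%) passed limma's test at 0.05 after Benjamini-Hochberg adjustment, 1381 up (11.6%) and 668 down (5.6%). Among the 11122 members, 1335 rose with a median log2 difference of 0.99 and 656 fell with a median of -0.84. A rise of at least 2 on the log2 scale was seen in 192 members and a fall of that size in 39. The deleted and control libraries did not overlap in 6408 of the genes fitted (53.7%), and this held for every called member. The plot of difference against level shows the larger rises among genes of low or middle level. All differences are on the scale of log2(RPKM + 1), which understates the change of low genes. The numbers fell without control 2, to 1001 up and 413 down, without deleted 1, to 941 and 401, and without deleted 2, to 884 and 438. The balance of rises and falls depended on scaling, with 1269 up and 1135 down after quantile normalization and 1178 up and 879 down after median-ratio scaling.

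**Figure D1:**
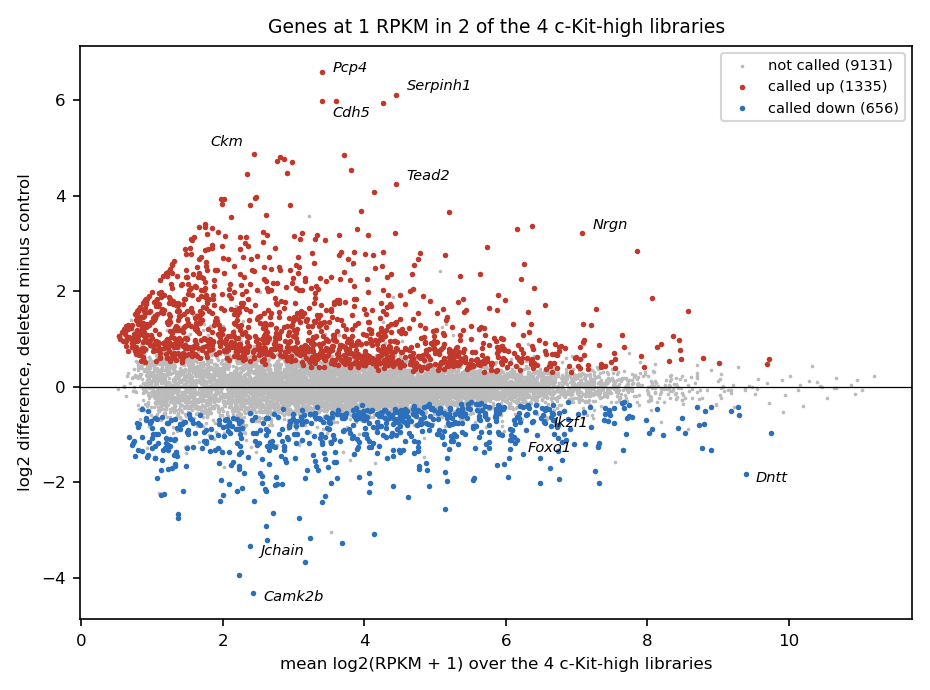
Each point is a member gene, placed by its mean log2(RPKM + 1) over the 4 c-Kit-high libraries and its log2 difference, deleted minus control; the 1335 genes called up are red and the 656 called down are blue (limma). Rises reach beyond 6 on the log2 scale (Pcp4, 6.60), while the deepest fall is Camk2b at -4.31.

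The largest rises were in genes at or under 5 RPKM in both controls and far above that after deletion. Pcp4, a calmodulin regulator of Purkinje neurons, had control values of 0.15 and 0 RPKM against 103 RPKM in both deleted libraries (log2 difference 6.60 ± 0.20 SE, adjusted p = 1.72e-09). Cdh5, the cadherin of endothelial junctions, was at 0.239 and 0.433 RPKM against 104 and 67.0 RPKM. Serpinh1, a chaperone of collagen, was at 1.49 and 1.76 RPKM against 168 and 195 RPKM. In these 3 genes the lowest deleted library was far above the highest control. Cd248 (endosialin), a surface protein of pericytes and fibroblasts, rose from 1.56 and 1.35 to 140 and 162 RPKM. Pianp, which encodes a ligand of a paired immunoglobulin-like receptor, rose from 0.703 and 0.369 to 104 and 88.8 RPKM. Ckm, the muscle form of creatine kinase, was listed at 0 in both controls and at 29.2 and 27.7 RPKM after deletion. Transcription factors were among the largest rises as well. Tbx19, a T-box factor of the pituitary, went from 0.752 and 2.43 to 56.4 and 85.5 RPKM, Lhx2, a LIM homeobox factor active in haematopoietic stem cell expansion, from 2.38 and 4.34 to 62.9 and 80.7 RPKM, and Tead2, described below, from 4.89 and 3.25 to 103 and 84.7 RPKM. Aatk, a kinase gene first described in dying myeloid cells, rose from 0.305 and 0.492 to 36.0 and 38.7 RPKM. These calls held in each of the alternatives in which the gene was tested.

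Among the falls, Camk2b, a calcium/calmodulin-dependent kinase subunit, had control values of 22.0 and 24.2 RPKM against 0.127 and 0.298 RPKM after deletion (log2 difference -4.31 ± 0.35 SE, adjusted p = 5.06e-06). Jchain, the joining chain of secreted IgM and IgA, fell from 22.2 and 10.9 to 0.304 and 1.07 RPKM. The groups are well apart in both genes, although the 2 controls differ in Jchain. Fcrl6, an Fc receptor-like gene, fell from 13.2 and 22.7 to 0.333 and 0.0753 RPKM. Tnfrsf8 (CD30) had control values of 4.92 and 6.54 RPKM and was listed at 0 in both deleted libraries. The homeobox gene Dlx1 fell by 2.65 on the log2 scale. Klrb1c (NK1.1), a lectin-like receptor of natural killer cells, fell from 6.12 and 10.2 to 0.567 and 0.826 RPKM. Other natural killer genes were low throughout, with Ncr1, Klrd1, Klrk1 and Gzma under 0.5 RPKM in each library. Of 7 tested natural killer and dendritic cell genes 1 was called, Klrb1c. It reached 1 RPKM only in the c-Kit-high controls, so it could enter the test only as a fall. The count is therefore no support for a change of the list. Klrb1c was not tested without control 1 or control 2 because a single library then reached 1 RPKM.

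**Figure D2:**
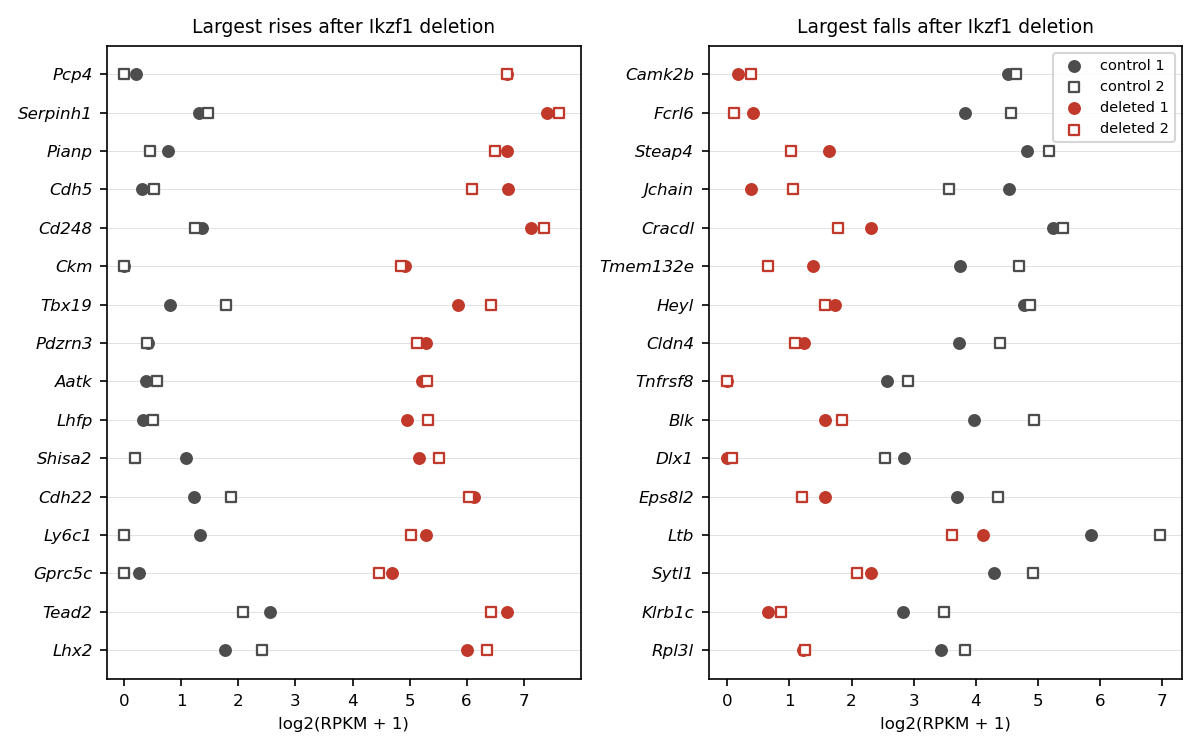
Values of log2(RPKM + 1) in each of the 4 c-Kit-high libraries for the 16 largest rises (left) and 16 of the largest falls (right), with controls in grey, deleted libraries in red, library 1 of a group as a filled circle and library 2 as an open square. Genes were chosen with groups that do not overlap, so control and deleted points are separated in every row, by more than 4 units for Pcp4 and Camk2b.

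Promoters are shown for 4 of these genes, since Ikaros binds DNA at sites with the core letters GGGAA. They are the largest rise, the rising factor Tead2, the largest fall, and Jchain, whose fall differed from both other pro-B settings in tests given further on. The sequences come from the RefSeq promoter table of GRCm38.p6, which spans 250 bases before to 50 after each gene's start, and each is printed on the gene's own strand, 5′ to 3′; capitals mark GGGAA or its reverse complement TTCCC.
Pcp4 (chr16:96467356-96467655, plus strand): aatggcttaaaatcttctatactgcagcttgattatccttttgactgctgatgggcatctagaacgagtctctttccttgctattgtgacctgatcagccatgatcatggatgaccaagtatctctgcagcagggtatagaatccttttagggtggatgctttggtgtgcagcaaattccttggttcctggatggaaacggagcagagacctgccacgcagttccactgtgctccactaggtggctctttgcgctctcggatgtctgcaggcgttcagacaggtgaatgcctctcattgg
Tead2 (chr7:45215542-45215841, plus strand): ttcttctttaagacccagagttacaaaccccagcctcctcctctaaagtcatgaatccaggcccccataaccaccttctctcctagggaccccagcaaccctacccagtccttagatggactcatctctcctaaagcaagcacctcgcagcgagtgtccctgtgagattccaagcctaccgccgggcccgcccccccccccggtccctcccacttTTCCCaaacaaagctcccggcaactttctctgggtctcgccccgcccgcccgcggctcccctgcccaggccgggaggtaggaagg
Camk2b (chr11:6065699-6065998, minus strand): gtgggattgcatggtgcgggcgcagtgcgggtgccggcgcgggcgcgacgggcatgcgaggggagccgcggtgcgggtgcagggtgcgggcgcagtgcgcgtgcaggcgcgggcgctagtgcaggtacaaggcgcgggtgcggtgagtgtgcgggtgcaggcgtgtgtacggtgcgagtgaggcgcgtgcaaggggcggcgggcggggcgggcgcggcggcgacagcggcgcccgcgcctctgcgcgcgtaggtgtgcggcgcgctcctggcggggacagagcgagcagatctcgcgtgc
Jchain (chr5:88527848-88528147, minus strand): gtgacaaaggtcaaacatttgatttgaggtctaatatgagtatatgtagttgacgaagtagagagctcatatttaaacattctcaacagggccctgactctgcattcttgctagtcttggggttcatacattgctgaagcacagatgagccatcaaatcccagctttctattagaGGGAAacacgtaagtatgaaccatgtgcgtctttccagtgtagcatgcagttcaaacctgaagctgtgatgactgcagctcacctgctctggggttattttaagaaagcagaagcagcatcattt
The letters occur once in the Tead2 window and once in that of Jchain, and not in those of Pcp4 and Camk2b, which says only that these letters are not in these windows. Over the whole table, 62.7% of 32851 promoters hold GGGAA on either strand. The share was 65.6% for the 1349 promoters of genes that rose, 61.7% for the 699 of genes that fell and 64.8% for the 9278 of members not called. The longer form TGGGAA occurred in 25.6% of all promoters, 25.9% of those of genes that rose and 22.0% of those of genes that fell. The motif in these windows was a common feature of promoters in all of these sets, and binding was not measured in them here.

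Several guidance receptors, best known from axons and vessels, rose. Neuropilins are co-receptors of semaphorins, and plexins are their signalling receptors. Of 17 tested members of this list, 8 rose and 0 fell, with a median log2 difference of 0.59 beside 0.03 over all genes fitted. The shares called over all genes were 11.6% up and 5.6% down. Plxnb1, among the 8, reached 1 RPKM only in deleted libraries, and the count of rises is no support for a change of the list. Nrp1 had control values of 1.12 and 1.02 RPKM against 24.3 and 32.1 RPKM after deletion, Plxnb1 at 0.587 and 0.300 against 8.12 and 12.4 RPKM, and Plxnb2 at 31.4 and 33.9 against 99.9 and 102 RPKM. Both deleted libraries lie far above both controls in each of these receptors, and the libraries of a group differ most in Plxnb1. The receptor gene Plxnd1 had control values of 82.4 and 91.6 RPKM and deleted values of 55.5 and 52.0 RPKM, a difference of -0.68 that did not pass (limma adjusted p = 0.363). Its Rag2-null controls, which enter the same spread, were at 53.0 and 13.7 RPKM. Among the ligands, Sema7a rose by 1.82 and Sema4b by 1.46 on the log2 scale, while Sema4d, at 44.8 to 59.7 RPKM, had a difference of 0.24 (limma adjusted p = 0.16).

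TEAD factors bind DNA for the Hippo pathway and act with the coactivators Yap1 and Wwtr1. Of 15 tested genes of this pathway 5 rose and 0 fell, with a median log2 difference of 0.11, beside 11.6% up and 5.6% down over all genes fitted. Tead4 went from 0.0314 and 0 to 4.29 and 4.42 RPKM, Tead1 from 0.0472 and 0 to 1.48 and 1.21 RPKM, and Yap1 from 0.696 and 0.311 to 3.68 and 7.68 RPKM. Tead2 was the most abundant of the factors that rose. Wwtr1 did not reach the level needed to be tested. Tead4 reached 1 RPKM only in deleted libraries, and the count of rises is no support for a change of the list.

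Markers of other tissues were examined as lists, since Cdh5, Cd248 and Ckm are used to define them. Of 9 tested endothelial genes 4 rose, but Pecam1 was at 41.5 to 50.0 RPKM in the 4 libraries with a log2 difference of 0.04, Kdr at 1.23 to 3.00 RPKM, and Tek, Sox17 and Ptprb at under 0.15 RPKM in every library. The list summed to 156 and 189 RPKM in control and to 370 and 306 RPKM in deleted libraries, of which Eng (endoglin) gave 89.3 and 109 RPKM in control and 185 and 168 RPKM in deleted libraries and Cdh5 most of the remaining increase. The call for Eng ended with any 1 library left out (adjusted p = 0.0885 to 0.193). Besides Cdh5, the receptor kinase gene Tie1 rose from 0.0248 and 0 to 2.35 and 1.74 RPKM. Vwf, another of the rises, reached 1 RPKM only in the c-Kit-high deleted libraries, so it could enter the test only as a rise. Tie1 reached 1 RPKM only in deleted libraries, and the count of rises is no support for a change of the list. Of 14 tested stromal genes 3 rose, which were Cd248, Serpinh1 and the platelet-derived growth factor receptor gene Pdgfrb, from 0.0433 and 0.318 to 3.50 and 2.33 RPKM. The fibroblast and marrow stroma markers Lepr, Dcn and Lum were listed at 0 in all 4 libraries, and the collagen genes Col1a1 and Col1a2 were highest in control 2, at 4.1 and 1.5 RPKM. The stromal list summed to 5.28 and 19.1 RPKM in control and to 317 and 363 RPKM in the deleted libraries, where Cd248 at 140 and 162 RPKM and Serpinh1 at 168 and 195 RPKM made up nearly all of it. Of 6 tested striated muscle genes 4 rose, among them Des (desmin), listed at 0 in both controls and at 2.87 and 1.63 RPKM after deletion. Of the 18 muscle genes listed, the other 12 were too low to be tested, and Des reached 1 RPKM only in the c-Kit-high deleted libraries, so it could enter the test only as a rise and the count is no support for a change of the list. Myod1, Mb, Myh1, Myh4 and Myl1 were listed at 0 in all 4 libraries. The neuron list had 6 rises and 3 falls among 14 tested genes. Besides Pcp4 and Pianp, those that rose include Nrgn (neurogranin), from 34.6 and 54.3 to 338 and 503 RPKM, and Rasd2, a small GTPase gene, from 0.0689 and 0 to 14.1 and 15.7 RPKM, while Camk2b fell. Rasd2 reached 1 RPKM only in deleted libraries. The neuron and stromal lists hold genes that are among the largest rises or falls of these data, so their counts are no support for a change of those lists. The rises of the endothelial list numbered 2 without deleted 1, deleted 2 or control 2, those of the muscle list 2 without deleted 1 or deleted 2, and the falls of the neuron list 1 without deleted 2; without control 1, 2 stromal genes fell, and without deleted 1 a single endothelial gene fell.

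**Figure D3:**
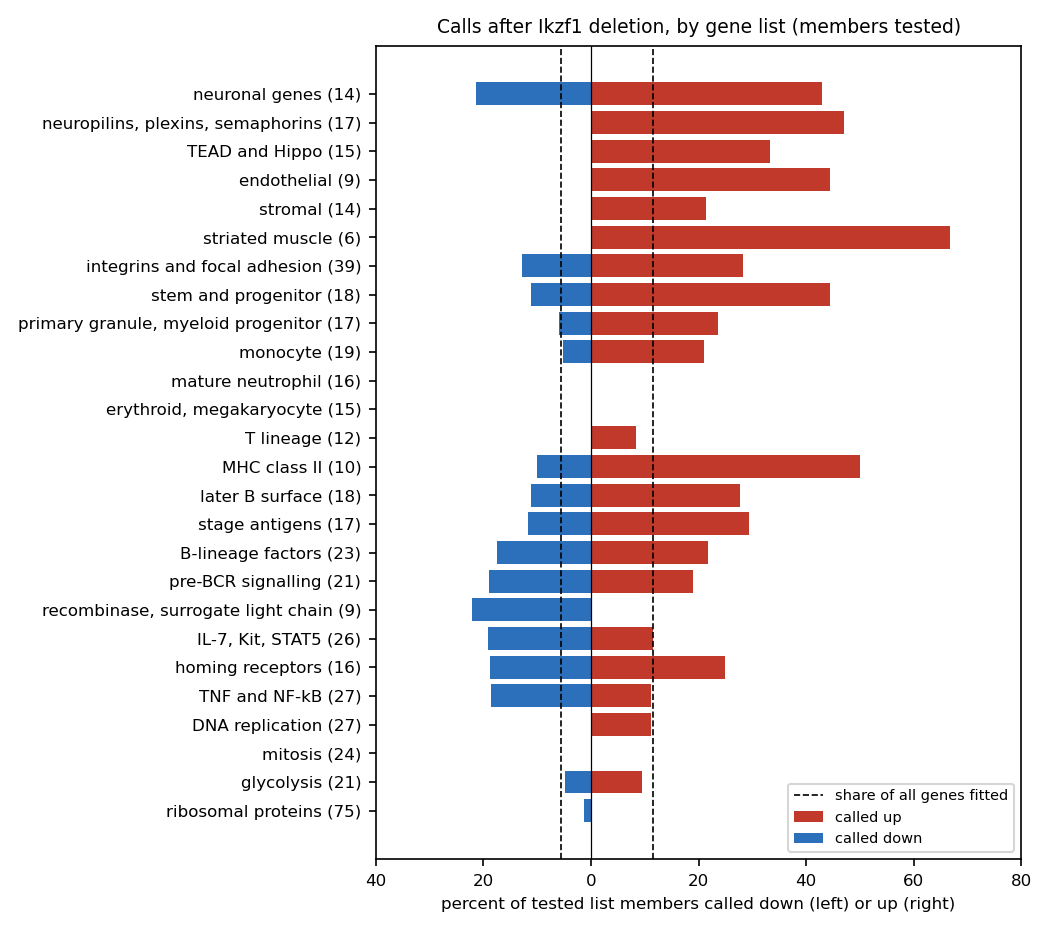
For each gene list, the percent of its tested members called down (blue, to the left) and up (red, to the right) in limma, with the number tested in parentheses and dashed lines at 5.6% and 11.6%, the shares over all genes fitted. The guidance, TEAD, stromal, endothelial and muscle lists have no falls, and the mitosis, neutrophil and erythroid lists have no calls.

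Adhesion genes moved in both directions, with 11 rises and 5 falls among 39 tested integrin and focal adhesion genes and a median log2 difference of 0.26. Among those that rose were genes of actin-binding proteins, kinases and integrin chains. Actn1 (alpha-actinin) went from 8.46 and 7.94 to 45.7 and 46.2 RPKM, Cttn (cortactin) from 0.545 and 0.710 to 8.30 and 7.33 RPKM, and Ptk2 (focal adhesion kinase) from 1.54 and 1.38 to 6.23 and 6.99 RPKM. The control and deleted values are each nearly equal within their group. The integrin genes Itga1, Itga3 and Itga9 rose by 1.56, 1.76 and 1.54 on the log2 scale. Itga1 reached 1 RPKM only in the c-Kit-high deleted libraries, so it could enter the test only as a rise. Among the falls, Itga4, whose product with the beta 1 chain binds VCAM1 on stroma, fell from 57.5 and 64.6 to 11.5 and 16.4 RPKM. Itgb2, the shared chain of leukocyte integrins, fell by 0.75 and its ligand gene Icam1 by 1.13 on the log2 scale. The parvin genes Parvb and Parvg, whose products link integrins to actin, fell by 1.75 and 0.40; the call for Parvb ended without deleted 1, deleted 2 or control 2 (adjusted p up to 0.0839) and that for Parvg with any 1 library left out (0.0791 to 0.164). The rises numbered 7 without deleted 1 or without deleted 2, and the falls 3 without deleted 1, deleted 2 or control 2.

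B-lineage transcription factors divided into rises and falls. Of 23 tested, 5 rose and 4 fell, with a median log2 difference of -0.04. Foxo1, which drives the recombinase genes, had control values of 103 and 105 RPKM against 46.7 and 49.1 RPKM after deletion (log2 difference -1.10 ± 0.15 SE, limma adjusted p = 0.000252). Tcf3, which encodes the E proteins E12 and E47, fell from 449 and 453 to 289 and 283 RPKM, and the Ets factor Erg from 232 and 251 to 110 and 95.7 RPKM. In these 3 genes each group is tight and the groups are apart. Ebf1, which specifies the lineage, was at 281 and 264 RPKM against 168 and 182 RPKM, a call that ended with any 1 library left out (log2 -0.58 to -0.69, adjusted p = 0.0626 to 0.118). Pax5, which commits cells to the lineage, was at 219 and 214 RPKM against 234 and 264 RPKM and did not pass the test (adjusted p = 0.413).

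The factors that rose are known from later B cells or from the myeloid and B-cell choice. Spi1 (PU.1) went from 56.2 and 60.1 to 97.1 and 93.1 RPKM, Irf8 from 119 and 98.7 to 169 and 178 RPKM, and Pou2f2 (Oct-2) from 12.7 and 13.3 to 31.4 and 28.5 RPKM. Bach2, a repressor of plasma cell fate, rose from 70.7 and 54.4 to 112 and 137 RPKM; without deleted 2 its call ended (log2 0.85, adjusted p = 0.0511), and the rises numbered 3. Irf4 rose by 0.60 on the log2 scale, a call that ended without deleted 1, deleted 2 or control 1 (log2 0.43 to 0.76 with a library left out).

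Of 9 tested genes of the recombinase, terminal transferase and receptor components, 0 rose and 2 fell. Rag2 had control values of 40.4 and 68.9 RPKM against 17.3 and 13.2 RPKM after deletion (log2 difference -1.74 ± 0.30 SE, adjusted p = 0.00128). Its partner Rag1 was at 283 and 361 against 143 and 80.8 RPKM, with a log2 difference of -1.56 that did not pass (adjusted p = 0.0706). Dntt, the terminal transferase, was at 1138 and 1383 against 413 and 307 RPKM. The controls were above both deleted libraries in all 3 genes, and 53.7% of all genes fitted had groups that did not overlap. The call for Dntt (log2 -1.81, adjusted p = 0.0429) ended with any 1 library left out (adjusted p = 0.0879 to 0.173). The surrogate light chain gene Vpreb1 had a difference of -0.53 (adjusted p = 0.0618), and the receptor genes Cd79a and Cd79b of -0.08 and 0.03 on the log2 scale.

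**Figure D4:**
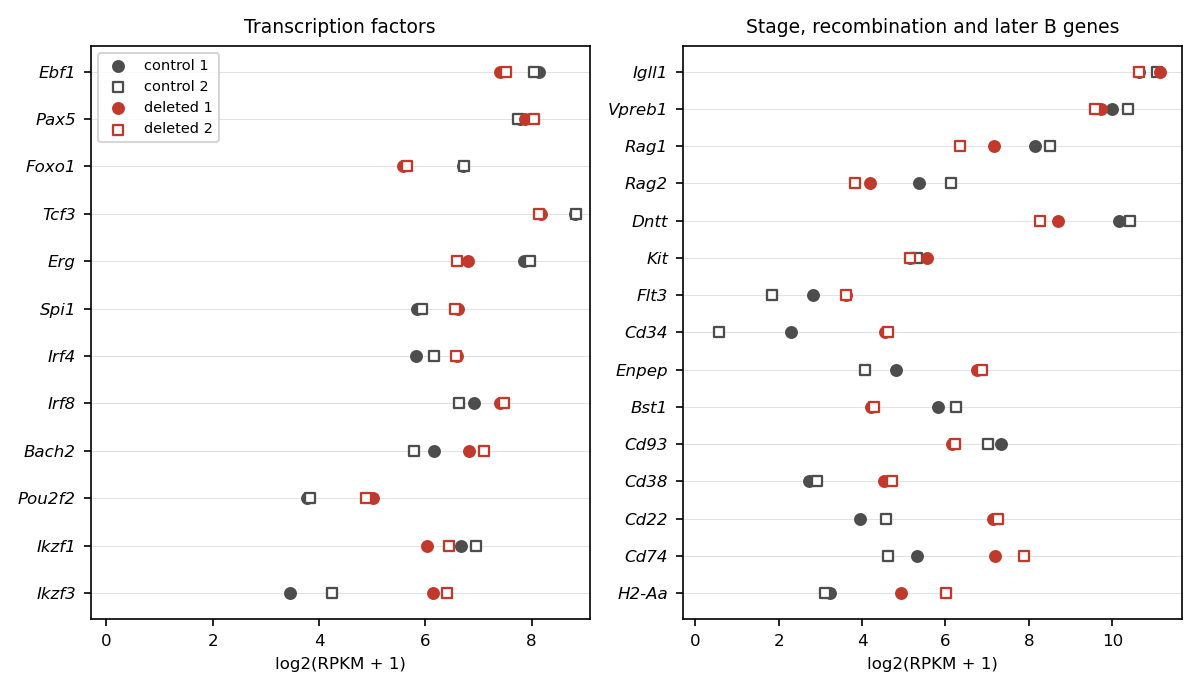
Values of log2(RPKM + 1) in each of the 4 c-Kit-high libraries for transcription factors (left) and for recombination, stage and later B genes (right), with controls in grey, deleted libraries in red, library 1 as a filled circle and library 2 as an open square. Foxo1, Tcf3, Erg, Bst1 and Cd93 have both deleted points to the left of both controls, Enpep, Cd22 and Cd74 to the right, while the points of Kit overlap.

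In the signalling chain of the pre-BCR, 4 of 21 tested genes rose and 4 fell, with a median log2 difference of -0.25. Blk, a Src family kinase of B cells, fell from 14.6 and 29.5 to 1.97 and 2.61 RPKM. The adaptor gene Blnk fell from 333 and 391 to 202 and 190 RPKM, and Pik3cd, the catalytic subunit of phosphoinositide 3-kinase in lymphocytes, from 173 and 152 to 91.4 and 83.3 RPKM. On the rising side, Ptpn6 (SHP-1), a phosphatase that opposes the kinases, went from 85.9 and 100 to 220 and 240 RPKM. Deleted values of these genes lay wholly outside the control values, as in every called member. Syk, the kinase that starts the chain, was at 184 and 214 against 167 and 154 RPKM and did not pass (adjusted p = 0.0898).

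Surface antigens that mark stages moved in opposite directions. Of 17 tested, 5 rose and 2 fell. Enpep (BP-1), an antigen of large pre-B cells, rose from 27.2 and 15.9 to 106 and 117 RPKM, and Cd38 from 5.66 and 6.62 to 21.9 and 25.4 RPKM. The progenitor antigen Cd34 rose from 3.92 and 0.493 to 22.5 and 23.6 RPKM, and the receptor gene Flt3, normally silenced at commitment, from 6.05 and 2.58 to 11.3 and 11.2 RPKM (log2 1.29, a call that ended at a pseudocount of 0.1, adjusted p = 0.0552). In Cd34 and Flt3 the 2 controls differ from each other, with the shallow control 2 the lower. Bst1 (BP-3) fell from 55.6 and 75.8 to 17.5 and 18.6 RPKM, and Cd93 from 160 and 129 to 70.5 and 73.7 RPKM. Il7r, at 71.2 and 97.2 against 92.6 and 113 RPKM, did not pass (adjusted p = 0.618).

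Genes of later B cells and of antigen presentation were higher after deletion for the larger part of those called. Cd22, an inhibitory co-receptor, rose from 14.4 and 23.0 to 139 and 153 RPKM, Cd72 from 72.7 and 104 to 230 and 325 RPKM, and Fcrl1 from 0.782 and 1.90 to 10.5 and 12.5 RPKM. Over this list of later B surface genes, 5 of 18 tested rose and 2 fell. Cd69, an early activation antigen, fell by 1.90 and Cd53 by 0.99 on the log2 scale. The rises numbered 3 without deleted 1, deleted 2 or control 1. Of 10 tested genes of MHC class II presentation, 5 rose and 1 fell, with a median log2 difference of 1.11. The invariant chain gene Cd74 rose from 39.2 and 23.7 to 145 and 237 RPKM, H2-Aa from 8.41 and 7.65 to 29.6 and 63.9 RPKM, and Ciita, the coactivator of the class, from 0.725 and 0.836 to 2.37 and 3.92 RPKM. Deleted 2 was the higher deleted library in each, and without it 3 class II genes were called up. The gene that fell was H2-Ob, a modulator of peptide loading, at 38.7 and 67.4 against 27.0 and 33.2 RPKM, a call that ended without deleted 1, deleted 2 or control 2 (log2 -0.36 to -1.14 with a library left out).

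IL-7 and Kit signal through STAT5, which induces its own feedback inhibitors. Change ran both ways in this list, with 3 rises and 5 falls among 26 tested genes. Over all genes fitted 11.6% rose and 5.6% fell, so the share of rises was near that background and the share of falls above it. Socs2 rose from 25.9 and 16.3 to 74.3 and 72.8 RPKM and Cish from 25.2 and 13 to 58.5 and 51.7 RPKM, both being feedback inhibitors. The kinase gene Jak3 fell from 45.3 and 42.5 to 25.8 and 29.7 RPKM and Pim1 from 104 and 84.3 to 54.8 and 56.6 RPKM. The D-type cyclins diverged: Ccnd3, needed by pre-B cells, fell from 511 and 424 to 243 and 271 RPKM, while Ccnd2 rose from 98.8 and 65.4 to 151 and 141 RPKM. The falls numbered 3 without deleted 2 or control 2. Stat5a, Bcl2 and Myc had log2 differences of -0.14, 0.46 and -0.21, and none of them passed (adjusted p = 0.627, 0.143 and 0.462).

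Progenitor and myeloid genes were mixed in level. Of 18 tested stem and progenitor genes 8 rose and 2 fell, with a median log2 difference of 0.65; the rises numbered 4 without deleted 1 and 5 without deleted 2 or control 2. Among those rises, Mn1 reached 1 RPKM only in the c-Kit-high deleted libraries, so it could enter the test only as a rise. Hlf, a further rise, reached 1 RPKM only in deleted libraries, and the count of rises is no support for a change of the list. Csf1r, the receptor of macrophage growth factor, rose from 1.37 and 0.333 to 9.67 and 7.03 RPKM, and Cebpa, a driver of myeloid fate, from 1.22 and 0.982 to 5.09 and 5.22 RPKM. F13a1 rose from 20.3 and 22.6 to 83.1 and 74.6 RPKM, and the eosinophil granule gene Prg3 from 33.9 and 32.1 to 169 and 155 RPKM. Of 19 tested monocyte genes 4 rose and 1 fell, Ms4a6c, with a median log2 difference of -0.07. Lyz2 and Itgam in that list had differences of -0.40 and -0.48 that did not pass. Of 9 tested mast cell, eosinophil and basophil genes 2 rose and 0 fell. The eosinophil granule gene Prg2 had a difference of -0.19 (limma adjusted p = 0.482). The primary granule genes Mpo, Elane, Prtn3 and Ctsg did not pass the test. Mpo was at 20.1 and 10.1 against 37.9 and 15.1 RPKM and Elane at 15.1 and 7.48 against 11.2 and 4.03 RPKM, with overlapping groups. Prtn3 and Ctsg had log2 differences of 0.72 and 1.19 (limma adjusted p = 0.242 and 0.0553). Over the list of primary granule and myeloid progenitor genes, 4 of 17 tested rose and 1 fell. Among 16 tested mature neutrophil genes 0 were called in limma, with 2 lower at an unadjusted p under 0.05; without control 2 there were 7 falls, without deleted 2 there were 2, without control 1 there were 2 rises, and with a term for the consecutively numbered pair there were 8 falls. S100a8 shows the pattern, with control values of 134 and 18.6 RPKM and deleted values of 17.3 and 56.3 RPKM, so the consecutive pair was high whatever its genotype. Of 15 tested erythroid and megakaryocyte genes 0 were called, with 4 higher and 1 lower at an unadjusted p under 0.05; up to 3 rose with a library left out (without deleted 2). The part of other cells in these results was not tested beyond these values, and in bulk samples more cells of a type and more RNA per cell cannot be told apart.

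In the T-lineage list 8.33% of the tested genes were called, near the 11.6% of all genes fitted that rose. Notch genes were called in both directions, as were genes at large (11.6% up and 5.6% down). Of 12 tested T-lineage genes 1 rose, Zap70, a kinase of the T-cell receptor, from 6.29 and 5.72 to 13.4 and 25.1 RPKM. Ptcra and Cd8b1 were listed at 0 in all 4 libraries. Without control 1 the T-lineage rises numbered 2. Of 10 tested Notch pathway genes 2 rose and 2 fell. Those that rose were the Deltex genes Dtx1 and Dtx4, by 1.21 and 1.41 on the log2 scale. The Notch target Heyl fell from 26.4 and 28.2 to 2.33 and 1.96 RPKM, a call that ended without deleted 2 or control 2 (adjusted p of 0.0425 to 0.0623 with a library left out). The other fall was Hes5, a further target, from 17.1 and 14.6 to 6.78 and 7.95 RPKM, a call that ended with any 1 library left out (adjusted p = 0.0559 to 0.128). The list had no fall without deleted 2 or control 2 and 1 without deleted 1 or control 1. Hes1, another target, had a difference of -0.24 (adjusted p = 0.469).

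In the TNF and NF-kB list, 3 of 27 tested genes rose and 5 fell. The share of rises was near the 11.6% over all genes fitted, and that of falls was above the 5.6%. Ltb, which encodes lymphotoxin beta, fell from 57.2 and 124 to 16.3 and 11.3 RPKM, Tifa, an adaptor that activates NF-kB, from 280 and 362 to 80.9 and 75.4 RPKM, and the inhibitor gene Nfkbie from 80.1 and 81.8 to 41.6 and 41.9 RPKM. The deleted values were below both controls in each, and no called member had overlapping groups. Among 16 tested homing receptors 4 rose and 3 fell; Ccr7, which directs cells to lymph nodes, rose from 9.18 and 11.6 to 27.3 and 22.5 RPKM. Without control 2 the homing rises numbered 2, and without deleted 2 or control 2 the falls numbered 1; the TNF list had 0 rises without deleted 2. Cxcr4, the receptor that retains progenitors in marrow, was at 223 to 250 RPKM in the 4 libraries, with a difference of 0.04 (adjusted p = 0.899).

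Genes of proliferation and basic metabolism were examined in 5 lists. Over all genes fitted 11.6% rose and 5.6% fell, and none of these lists exceeded either share in the fit of all 14 libraries. The replication list, with 11.1% called, was near the share of rises. Of 24 tested mitotic genes 0 were called in limma and 0 passed an unadjusted p under 0.05, with a median log2 difference of 0.02; without control 1 a single one was called. Among 27 DNA replication genes 3 rose, led by the licensing factor gene Cdt1, from 59.7 and 51.7 to 100 and 93.0 RPKM; the rises numbered 1 without deleted 1, deleted 2 or control 2 and 5 after quantile normalization. Of 75 ribosomal protein genes 0 rose and 1 fell, and of 21 glycolysis genes 2 rose and 1 fell, with a median of 0.04. The ribosomal falls ranged from 0 without deleted 1 to 5 without control 1, with 4 without deleted 2 and 2 without control 2; without deleted 1 the glycolysis list had no call, and without deleted 2 or control 1 no fall. Replication-dependent histones, at 54 tested genes, had 0 calls in limma and 1 with an unadjusted p under 0.05, upward; without deleted 2, 3 fell.

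The deletion effect was then set against that in total pro-B cells and in Rag2-null pro-B cells, which share no library with it. A test of the difference called 800 genes against total pro-B cells (6.7% of those fitted), 542 of them with the more positive value in c-Kit-high cells. It called 756 against Rag2-null cells (6.33%), 330 with the more positive value. Of the 1335 members that rose here, 716 (53.6%) also rose in total pro-B cells and 746 (55.9%) in Rag2-null cells. Of the 656 that fell, 350 (53.4%) fell in total pro-B and 223 (34.0%) in Rag2-null cells. The total pro-B cells had 1540 members up, of which 46.5% rose here, and 994 down, of which 35.2% fell here. The Rag2-null cells had 1680 members up, of which 44.4% rose here, and 782 down, of which 28.5% fell here. Of the rises here, 40 were falls in total pro-B and 18 in Rag2-null cells, and of the falls here 8 and 21 were rises there. In both tests of the difference together, 70 of the genes that rose here had the more positive effect and 37 of those that fell the more negative effect. Without deleted 1 the calls numbered 384 and 361, without deleted 2 they numbered 518 and 436, and without control 2 they numbered 506 against total pro-B cells.

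Several of the falls with the largest differences were genes with little RNA in the other controls. Jchain was at 0 and 0.0464 RPKM in total pro-B controls and at 0.0478 and 0.159 RPKM in Rag2-null controls, against 22.2 and 10.9 RPKM in c-Kit-high controls. Klrb1c was under 0.1 RPKM in all 4 of those other controls. Both genes had almost nothing to lose there. Camk2b, at 1.26 to 5.99 RPKM in the other controls, fell in all 3 settings, on the log2 scale by 1.1 in total pro-B cells and by 1.94 without Rag2.

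Of the rises, Cd248 differed from both other settings. It was already at 39.0 and 47.9 RPKM in total pro-B controls and 27.0 and 30.5 RPKM in Rag2-null controls, and after deletion it reached 182 to 245 RPKM there, close to the 140 and 162 RPKM of c-Kit-high cells. Cdh5 rose in total pro-B cells only to 7.70 and 2.97 RPKM, but in Rag2-null cells to 105 and 63.4 RPKM, as in c-Kit-high cells. Aatk reached 36.0 and 38.7 RPKM here, against 3.56 and 1.72 RPKM in total pro-B and 0.674 and 0.543 RPKM in Rag2-null cells with the deletion. Of the stromal list, 9 of 14 genes fell in total pro-B and 11 rose in Rag2-null cells, so stromal RNA moved with the groups there. Its part in these differences was not tested.

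**Figure D5:**
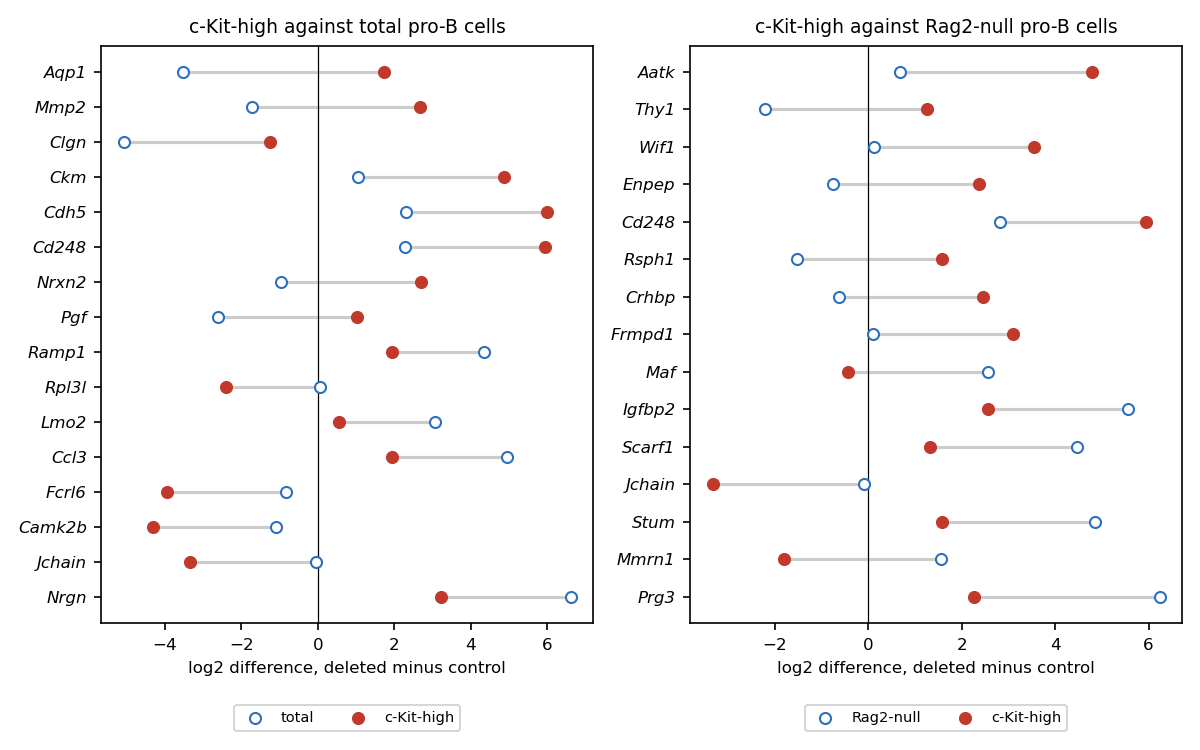
Log2 differences, deleted minus control, for genes, up to 8 each way, whose deletion effect differed most between c-Kit-high cells (red) and total pro-B cells (left, open blue) or Rag2-null cells (right, open blue), each pair joined by a line. Aqp1 and Mmp2 lie above 0 in c-Kit-high and below 0 in total pro-B cells, and Jchain lies at -3.33 in c-Kit-high cells and near 0 in both other settings.

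Glycolysis genes differed between the settings. Total pro-B cells had 13 of 21 genes down and Rag2-null cells 11, against 1 in c-Kit-high cells; the difference itself was called for 7 genes against total pro-B and 6 against Rag2-null cells, always with the more positive value here. Aldoa (aldolase A) was at 81.5 and 96.4 RPKM in the c-Kit-high controls and 113 and 104 RPKM after deletion, a difference of 0.28 (adjusted p = 0.135), against -0.89 in total pro-B and -1.37 in Rag2-null cells. Pkm (pyruvate kinase) was at 219 and 203 against 187 and 174 RPKM, a difference of -0.22 (adjusted p = 0.276), against -1.30 and -1.14. For Pkm the difference from Rag2-null cells was not called after quantile normalization (log2 0.38, adjusted p = 0.245) or without deleted 1 (log2 0.86, adjusted p = 0.0515). The class II gene H2-Aa rose by 2.30 here, by 4.27 in total pro-B cells and had a difference of 0.13 in Rag2-null cells. Foxo1 fell by 1.1 here and by 1.88 in total pro-B cells, with a difference of 0.32 in Rag2-null cells (adjusted p = 0.157).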

How the data were processed

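Strand-specific single-end libraries were made from polyadenylated RNA, per the labels' protocols. The deposited values are RPKM per gene model, computed by the authors for each library; the build mm9 and the tools DESeq 1.8.3, HTSeq 0.5.3 and TopHat 1.4.1 are named per the submitters' processing notes, and their roles and any filter are not given in the sources used here. Of 21025 gene models, 20661 were matched to a RefSeq symbol by accession, 191 by symbol only and 173 not; 110 share a symbol with another model. No counts were used. Low values fell on steps of whole reads, which gave the implied depths. Short olfactory receptor genes set the depth of the 4 Rag2-null libraries. The step sizes of 1341 genes were then taken from those libraries and applied to all 14 libraries. In the 4 c-Kit-high libraries, 87.8% to 89.8% of the low values lay within 0.05 read of a step. In control 1 and deleted 2 there were 2 step sizes, so that values were matched to sums of both, and their depths were added.

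The log2 of RPKM + 1 was fitted in R 4.3.3 by limma 3.58.1 (trend and robust moderation, two-sided), over 14 libraries in 7 groups, for the 11937 genes that reached 1 RPKM in 2 or more libraries, with 7 residual degrees of freedom. Differences between settings were interactions in that fit. Python 3.11.15 with pandas 2.3.3, numpy 2.4.6 and matplotlib 3.10.9 made tables and plots. The fit was tested on simulated data. Groups came from the labels.

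The members and gene lists were chosen with earlier results of these data known. Genes were named by rule: Ikzf1; the 20 largest called rises and 20 largest falls whose groups do not overlap and whose higher group averages 3 RPKM or more, of which those with a known role are given; up to 8 genes of each list, called ones first; and the 8 largest each way of each interaction. Alternatives were other pseudocounts, filters, scalings, the 4 libraries alone, library weights, a term for the consecutively numbered pair and leaving out each library. Chromatin libraries and knock-down libraries were not analysed here. Some named genes are not reported here.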

Additional observations from a re-analysis of the deposited data

Results flagged for a closer look

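The effect of the deletion in c-Kit-high cells differed from that in total pro-B cells for 800 genes and from that in Rag2-null cells for 756 genes, by the interaction in limma (adjusted p under 0.05); values below are that difference on the log2 scale, and a gene at 0 in a whole group gives no bound.

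Against total pro-B cells, the difference was 5.26 for the water channel gene Aqp1, which was at 7.32 and 4.07 RPKM in c-Kit-high controls and 26.1 and 16.4 RPKM after deletion but fell by 3.52 in total pro-B cells. It was 4.39 for the matrix protease gene Mmp2, 3.84 for Clgn, 3.83 for Ckm, 3.67 for Cdh5, 3.67 for Cd248 and 3.66 for Pgf. It was 3.66 for Nrxn2, a call lost without control 2 (adjusted p = 0.132). In the other direction it was -3.40 for Nrgn, -3.30 for Jchain, -3.22 for Camk2b, -3.10 for Fcrl6, -3.0 for the chemokine gene Ccl3, -2.53 for Lmo2, -2.46 for Rpl3l and -2.42 for Ramp1. Of these, Nrgn, Ccl3 and Ramp1 rose in c-Kit-high cells, by 3.22, 1.95 and 1.93, but by more in total pro-B cells, by 6.62, 4.94 and 4.36. The deletion effect in c-Kit-high cells was itself not called for Clgn, Pgf and Lmo2 (limma adjusted p = 0.0538, 0.1525 and 0.151).

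Against Rag2-null cells, the difference was 4.11 for Aatk, 3.46 for Thy1, 3.44 for the Wnt inhibitor gene Wif1, 3.14 for Enpep, 3.13 for Cd248, 3.08 for Crhbp and 3.00 for Frmpd1. It was 3.08 for Rsph1, a call lost without deleted 1 or deleted 2 (adjusted p = 0.0536 and 0.0535). It was -3.98 for Prg3, -3.36 for Mmrn1, -3.27 for Stum, -3.24 for Jchain, -2.99 for Igfbp2 and -2.98 for Maf. It was -3.13 for Scarf1, a call lost with any 1 library left out (adjusted p = 0.0603 to 0.0713). Stromal genes moved with the groups in both other settings, and their part in these values was not tested. Prg3, Stum and Igfbp2 rose in both c-Kit-high and Rag2-null cells. For Thy1, Scarf1 and Maf the deletion effect in c-Kit-high cells was itself not called (limma adjusted p = 0.0799, 0.0913 and 0.437).

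Of the genes given for the lists, Foxo1 differed by 0.78 from total pro-B cells, a call lost with any 1 library left out (adjusted p = 0.0789 to 0.124), and by -1.42 from Rag2-null cells. H2-Aa differed by -1.96 and 2.18, Pkm by 1.07 and 0.91, Aldoa by 1.17 and 1.66, and Slc2a1, the glucose transporter, by 1.18 and 0.90. Without deleted 1 the calls against Rag2-null cells were lost for Pkm (adjusted p = 0.0515) and Slc2a1 (adjusted p = 0.0852).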

How the results depend on the processing

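The numbers of genes called after deletion were 1381 up and 668 down. Fitted on the 4 c-Kit-high libraries alone, 890 rose, and after quantile normalization 1135 fell. With each library left out in turn, the rises ranged from 884 to 1355 and the falls from 401 to 762, the calls of the difference from total pro-B cells from 384 to 1036 and those from Rag2-null cells from 361 to 732. With no filter on low values, the latter numbered 473; the cause was not tested. Of 184 genes with a call, 109 kept it in every alternative in which they were tested and none reversed, while 366 of 2550 values lost the call. Of 378 values of the difference between settings, 37 lost the call and none reversed. No paired analysis was possible because the labels carry no replicate numbers shared between the groups, so no such number could serve as a block. A term of another kind could be fitted: that for the consecutively numbered libraries (control 1 and deleted 2 against the other 2) gave 1491 rises and 756 falls. A left-out library leaves 1 sample in its group, which is assumed to vary like the other groups. Library weights could not separate the libraries within a group of 2. The implied depth of 2.3 M reads in control 2 limits low control values.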

Other observations

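The following 3 genes lie outside the naming rule and the lists and were picked after their values were seen, so they stand for no group. Lig4, the ligase of end joining, fell from 16.5 and 23.8 RPKM in the controls to 5.75 and 6.37 RPKM after deletion (log2 difference -1.56, limma adjusted p = 0.000477). Xrcc6 (Ku70), which binds broken ends, fell from 151 and 231 to 72.2 and 57.1 RPKM (log2 -1.53). Smarca4, the BRG1 ATPase of the BAF complex, fell from 736 and 772 to 321 and 285 RPKM (log2 -1.32). In total pro-B and Rag2-null cells the log2 differences were -0.30 and -1.11 for Lig4, -0.42 and -0.85 for Xrcc6, and -0.77 and -0.40 for Smarca4. The interaction with total pro-B cells passed for Lig4 (limma adjusted p = 0.0399) and not for Xrcc6 (0.0588) or Smarca4 (0.243), and that with Rag2-null cells passed for none of the 3 (0.457, 0.236 and 0.0529).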
